A study of Mus musculus with 12 samples.

Results

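Some liver mRNAs rise and fall on a 12 hr rather than a 24 hr schedule, so that the same level is met at opposite times of the day. The 150 genes described here are those with the strongest 12 hr component in the RNA-Seq signal of mouse liver. They were chosen by their signal in all 12 samples. A gene needed a signal above 2 reads per base pair in at least 1 sample and a highest time-point mean above 1.5 times the lowest, and the 150 genes with the highest F12 were then taken. F12 is the share of the variance of the 12 values that a Fourier component with a period of 12 hr takes up. Of the 20069 genes in the table, 10198 passed the signal minimum, 3900 of these also passed the fold, and 150 were chosen.

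The mRNA came from the livers of adult wild-type C57BL/6 mice, 3 to 6 months old, that had lived in 12 hr of light and 12 hr of darkness and, at every time point, were killed under isoflurane. Zeitgeber time (ZT) counts hours from lights on. Livers were taken every 4 hr from ZT2 to ZT22 in each of 2 series, so that each of the 6 time points has 2 samples (n = 2). By their labels the groups differ in time of day and share strain, housing and library kit. The labels do not say whether a sample is 1 animal or a pool, so p-values measure only the spread between these samples. Whole liver was used, in which fewer cells of a type and less RNA per cell cannot be told apart.

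With samples 4 hr apart, a 12 hr rhythm can only be seen as a difference between 3 pairs of opposite times. ZT2 is paired with ZT14, ZT6 with ZT18 and ZT10 with ZT22, and F12 is exactly the share of variance between these 3 pairs, each with 4 values. For 12 unrelated values this share is 0.182 on average. A smooth wave with 2 crests a day and a sharp spike repeated after 12 hr give the same F12, and the sampling does not separate them.

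Rhythms of about 12 hr in liver mRNA have been linked in particular to the endoplasmic reticulum (ER), where secreted proteins are made. Proteins enter the ER through the translocon, receive N-linked sugar chains, fold with the help of chaperones and leave in COPII vesicles. When unfolded proteins accumulate, the sensors IRE1, PERK and ATF6 raise the genes of this machinery, which is the unfolded protein response. Liver cells secrete most plasma proteins and depend on this route.

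The livers of 3 samples stood apart from the others, which was checked after the data had been seen. Saa1, an acute-phase protein that the liver makes during inflammation, had a signal of 3578 and 3229 reads per base pair in the ZT2 samples and 1312 in the ZT22 sample of series 2, against 14.5 to 58.2 in the 9 other samples. Saa2, Lcn2, Orm2 and Hp, also acute-phase genes, were high in these 3 samples too, Hp (haptoglobin) with 4816, 4334 and 3132 against 894 to 1398. Macrophage markers of the liver (Kupffer cells) had a summed signal of 140 to 270.1 at ZT2 and ZT14. At ZT6 and ZT18 it was 139.6 to 205.4, and at ZT10 and ZT22 162.6 to 209.6. All 11 tested markers had their highest pair at ZT2 and ZT14, as had 41.4% of the 3900 genes past the fold. In a fit without the ZT2 samples, 6 of 11 had a 12 hr peak within 2 hr of that from all samples. Without all 3 samples 5 of 11 did, against 78.5% and 75.5% of all genes. In limma none of the 11 had an unadjusted p below 0.05 in these fits, against 3 with all samples. Their part in the 12 hr pattern was not tested, and the counts of calls are given below also without the 2 ZT2 samples and without all 3 samples. Of the neutrophil list, Lcn2 stood at 135, 108 and 61.1 in the 3 samples. S100a8 and S100a9, which define these cells, were at most 3.73 in any sample. All 3 neutrophil markers tested had their highest pair at ZT2 and ZT14, 1 of them with an unadjusted p below 0.05 in limma. Hepatocyte markers were high in every sample, with Alb (albumin) at 12611 or more, while 10 T and NK cell markers summed to at most 3.68 and 9 skeletal muscle markers to at most 6.78. Bile duct markers summed to between 22.3 and 61.6 at ZT2 and ZT14, 19.8 and 24.7 at ZT6 and ZT18 and 19.8 and 38.7 at ZT10 and ZT22. Exocrine pancreas markers summed to between 17.0 and 24.2, 8.02 and 12.9, and 6.32 and 21.9 in the same order, and fat cell markers to between 439 and 1351, 1031 and 1866, and 666 and 1797. The part of these lists in the 12 hr pattern was not tested either. The size factors of the 12 samples lay between 0.976 and 1.03, and their 12 hr share was 0.0851. The signal is scaled to a common depth and holds no read counts, and no counting interval is given.

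The 150 genes had F12 between 0.633 and 0.941, with a median of 0.691. Their 24 hr share (F24) had a median of 0.0933 and reached 0.31 at most. Variance within time points took up a median share of 0.135. Among all 10198 genes the median F12 was 0.202 and the median F24 was 0.31, and F24 was above F12 in 60.6% of them.

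**Figure D1:**
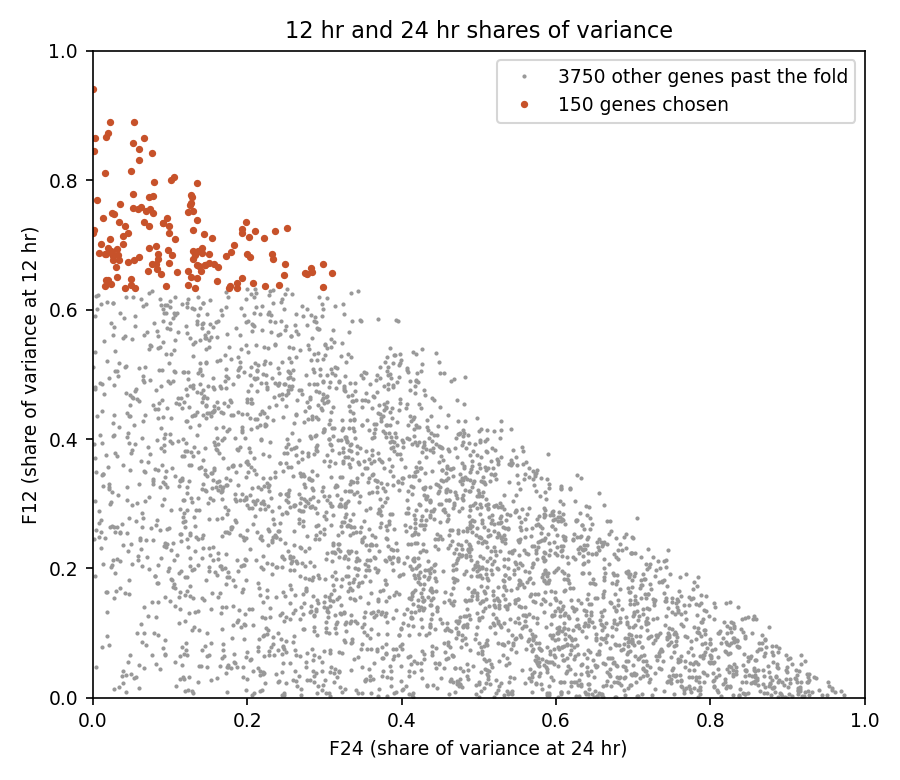
Share of variance at 24 hr (F24, x axis) and at 12 hr (F12, y axis) for the 3900 genes past the signal minimum and the fold, with the 150 chosen genes in orange. The chosen genes all lie between an F12 of 0.633 and 0.941, and none has an F24 above 0.31, while the other genes spread along the F24 axis up to 0.973.

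The 150 genes fell into a pair of opposite phases and a small group at ZT10 and ZT22. In 80 genes the 4 values of ZT2 and ZT14 had the highest mean, in 62 genes those of ZT6 and ZT18, and in 8 genes those of ZT10 and ZT22. Of the 3900 genes past the fold, 41.4%, 36.2% and 22.5% had their highest pair there. In 73 of the 80 genes the lowest pair was ZT6 and ZT18, and in 53 of the 62 genes it was ZT2 and ZT14, so that 126 of the 150 genes were opposite in phase along 1 axis. In the 80 genes the first 12 hr peak lay between ZT0.0241 and ZT3.23, with a median of ZT1.27, and in the 62 genes between ZT4.18 and ZT7.78, with a median of ZT6.82. The second peak is 12 hr later by construction.

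**Figure D2:**
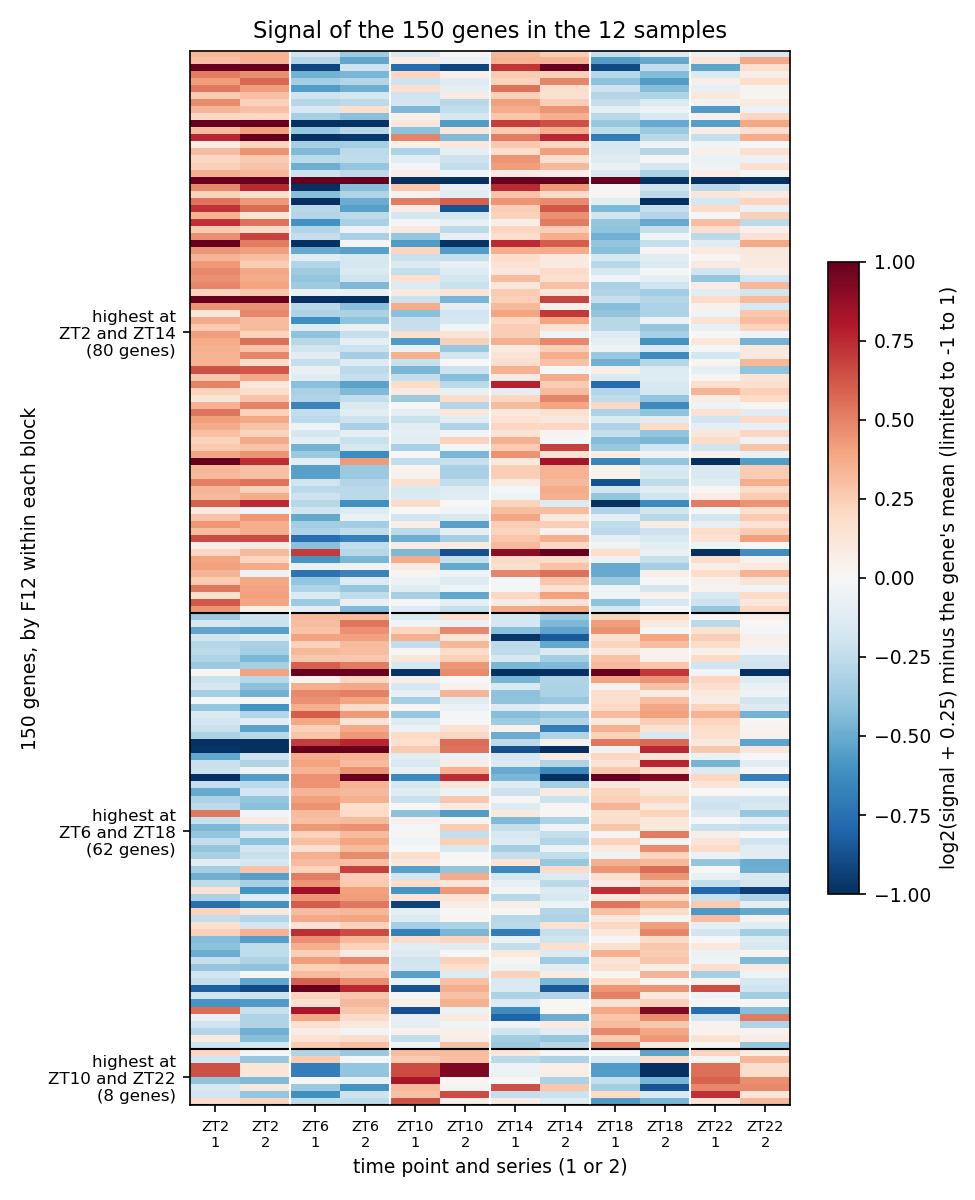
Signal of the 150 genes (rows) in the 12 samples (columns, 2 series per time point), as log2(signal + 0.25) minus the mean of the gene, from blue (low) to red (high). The 80 genes of the upper block are mostly high at ZT2 and ZT14, with all 4 values above the mean of the gene in 69, the 62 genes of the middle block at ZT6 and ZT18, with all 4 above in 57, and the 8 genes at the bottom at ZT10 and ZT22, with all 4 above in 8.

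The first peak of the day was more often the higher. In the first group ZT2 was higher than ZT14 in 61 of 80 genes, and in the second ZT6 was higher than ZT18 in 45 of 62. The ratio of the first to the second peak had a median of 1.08 and 1.09. The 4 values of the highest pair all lay above the 4 values of the lowest pair in 144 of the 150 genes, as in 13.6% of all genes tested, and above all 8 other values in 42, as in 1.57%. Both means of the highest pair lay above the other 4 means in 122 genes, as in 17.4% of all genes. These counts come from the values that chose the genes and describe them only.

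ZT14 and ZT2 were also described apart. Both ZT14 values lay above all 4 values of ZT6 and ZT18 in 76 of the 80 genes, and both ZT2 values did so in 78. Among all genes tested, 14.4% met the first and 23.3% the second criterion. A fit of 12 hr and 24 hr terms without the ZT2 samples gave a 12 hr peak within 2 hr of the peak from all samples in 149 of 149 genes that passed the minimum, and in 148 of 149 without all 3 samples, against 78.5% and 75.5% of all genes. The values behind these counts are among those that chose the genes, so the counts are no support for the pattern.

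In the first group the genes of the ER and of protein secretion shared 1 phase. The role groups were made after the values had been seen, so their counts describe the genes and test nothing. All 10 genes of translocation and vesicle transport (H13 and Hm13 are 2 entries of the same gene), all 4 of N-glycan assembly and all 4 of ER quality control peaked with ZT2 and ZT14, as did 5 of 5 genes of ribosome assembly and 4 of 4 of translation and splicing. The 5 genes of membrane transport, the 13 metabolic enzymes and the 11 signalling genes were divided between the phases. Without the ZT2 samples no gene of these roles was called in limma, and none without all 3, in fits that called 1 gene of 10055 and 1 of 10008. When the rule was applied anew without them, 48 of the 150 genes were chosen again without the ZT2 samples and 46 without all 3.

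**Figure D3:**
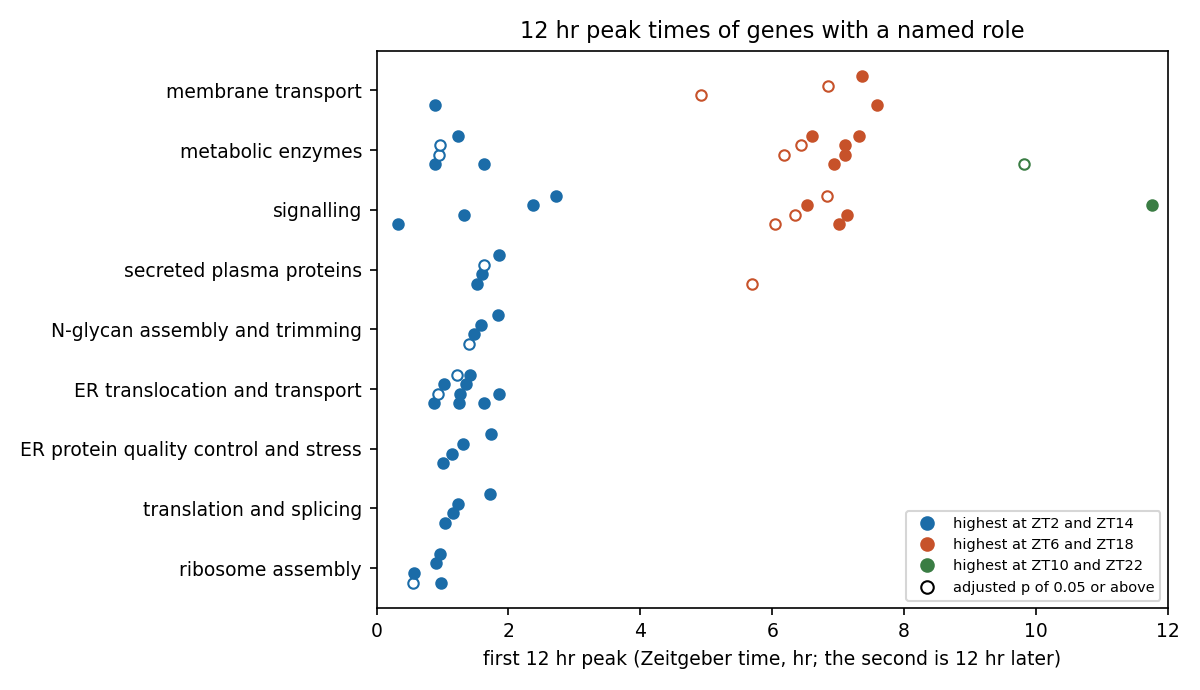
Time of the first 12 hr peak (x axis, ZT in hr) for the 61 genes with a named role (rows), coloured by their highest pair, with open circles for genes above the limit of adjusted p in the fit over all genes. Genes of the ER, of N-glycans, of translation and of the ribosome lie between ZT0.549 and ZT1.85, while transport, enzyme and signalling genes are found in both phases.

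Alg3, which adds a mannose to the growing sugar chain in the ER membrane, had the highest F12 of all (0.941; chromosome 16, 20605524 to 20610841, mm9). Its signal in reads per base pair was 6.27 and 6.34 (ZT2), 4.25 and 3.79 (ZT6), 4.45 and 4.97 (ZT10), 6.26 and 5.91 (ZT14), 4.15 and 4.48 (ZT18) and 4.70 and 4.39 (ZT22) (series 1 and 2). The 4 values at ZT2 and ZT14 lay above the 8 others with no overlap. The pair means were 6.20 ± 0.193 (SD, n = 4) at ZT2 and ZT14, 4.17 ± 0.287 at ZT6 and ZT18 and 4.63 ± 0.265 at ZT10 and ZT22, and the fitted 12 hr cosine ran over a 1.57-fold range from trough to peak (0.65 ± 0.0848 SE on the log2 scale of signal + 0.25). Alg12, a later mannosyltransferase of the same chain, had pair means of 3.54 ± 0.636 at ZT2 and ZT14 and 1.97 ± 0.0618 at ZT6 and ZT18, Gcs1 (Mogs), which trims the first glucose, 11.8 to 14.6 and 9.39 to 10.1, and Gmppb, which makes GDP-mannose, 9.65 ± 1.53 and 5.91 ± 0.620.

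Sec23b, a subunit of the COPII coat that buds cargo from the ER, had F12 of 0.865 (chromosome 2, 144381965 to 144416485). Its signal was 14.04 and 15.7 (ZT2), 8.19 and 8.50 (ZT6), 9.04 and 9.53 (ZT10), 12.2 and 14.8 (ZT14), 7.81 and 7.01 (ZT18) and 10.9 and 11.8 (ZT22). All 4 values at ZT2 and ZT14 were above the rest, and ZT22 was next. Sec24d, which selects cargo in the same coat, was less regular, with 15.7 and 17.6 (ZT2), 11.7 and 12.1 (ZT6), 11.2 and 16.4 (ZT10), 16.8 and 20.3 (ZT14), 12.1 and 11 (ZT18) and 15.2 and 16.6 (ZT22). For Sec24d the values of ZT10 and ZT22 in series 2 reached into the range of ZT2.

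The translocon and its receptor ran in the same phase. Ssr1, a subunit of the TRAP complex beside the translocon, had 27.7 and 27.7 (ZT2), 19.0 and 17.9 (ZT6), 24.8 and 21.4 (ZT10), 28.9 and 30.7 (ZT14), 19.7 and 21.4 (ZT18) and 24.8 and 27.6 (ZT22). Here ZT14 was the higher peak, with a ratio of ZT2 to ZT14 of 0.929, and ZT22 in series 2 came close to ZT2. Ssr4, another TRAP subunit, had pair means of 45.0 ± 5.31 at ZT2 and ZT14 and 32.5 ± 3.12 at ZT6 and ZT18. Sec61g, a subunit of the pore itself, was just inside the limit of 150 genes and rested more on 1 time point, with 56.4 and 48.1 at ZT2 but 38.5 and 39.9 at ZT14, against 27.6 to 34.8 at ZT6 and ZT18. Srp68, part of the signal recognition particle, and Srprb, part of its receptor, had 14.5 ± 0.707 and 7.45 ± 0.652 in the highest pair against 10.6 ± 1.12 and 4.72 ± 0.403 in the lowest.

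The promoters of Sec24d and Ssr1 are shown because they hold the UPR element core TGACGTGG and the E-box CACGTG, the site of the clock factors CLK and BMAL1. Each sequence is the 100 bases up to the start site in RefSeq (build GRCm38.p6), 5′ to 3′ on the strand of the gene, with the motif in capitals. Sec24d lies on the plus strand at chr3:123267396-123267495, and its motif begins 26 bases before the start. Ssr1 lies on the minus strand at chr13:37994209-37994308, and its motif begins 72 bases before the start.
Sec24d: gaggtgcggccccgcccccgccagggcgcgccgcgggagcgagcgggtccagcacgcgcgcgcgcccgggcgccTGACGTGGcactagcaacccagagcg
Ssr1: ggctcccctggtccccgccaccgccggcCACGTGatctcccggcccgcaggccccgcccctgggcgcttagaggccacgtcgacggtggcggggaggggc

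Over RefSeq windows of 300 bases around the start, read on both strands, TGACGTGG was found in 3 of 128 promoters of the 104 chosen genes that matched (2.34%), in 0.834% of 8749 promoters of genes past the signal minimum and in 0.676% of all 32851. CACGTG was found in 11 of 128 promoters of the chosen genes (8.59%), in 9 of 64 promoters of genes highest at ZT2 and ZT14 (14.1%), in 2 of 59 of those highest at ZT6 and ZT18 (3.39%), in 10.3% of the promoters of genes past the minimum and in 7.15% of all. Some genes have several promoters, which can overlap. In all 9 motifs were searched. Of the others, CCACG, the second part of the ER stress element, was found in 44.5% of promoters of the chosen genes and 47.3% of those past the minimum, CCAAT in 40.6% and 37.5%, TGACGTCA in 4.69% and 3.11%, CCGGAAGT in 7.81% and 8.8%, GAANNTTC in 10.2% and 5.94%, and TGATGCAAT in 0 of 128 and 0.114%. A match is a description of the letters and does not show binding.

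Genes of ER quality control followed the same course. Ube2g2, a ubiquitin-conjugating enzyme that marks misfolded ER proteins for degradation, had 16.3 and 16.9 (ZT2), 9.77 and 10.5 (ZT6), 13.6 and 11.6 (ZT10), 18.6 and 17.4 (ZT14), 13.2 and 12.3 (ZT18) and 13.3 and 15.6 (ZT22). The ZT2 and ZT14 values lay above the 8 others. Wfs1, an ER membrane protein that is mutated in Wolfram syndrome, had pair means of 3.29 ± 0.510 at ZT2 and ZT14 and 1.94 ± 0.280 at ZT6 and ZT18, Stch (Hspa13), a chaperone of the Hsp70 family, 9.74 ± 0.443 and 6.08 ± 0.275, and Crebl1 (Atf6b), a relative of the stress sensor ATF6, 5.32 ± 0.317 and 3.31 ± 0.571.

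Ngdn and Nucb2 followed Alg3 in F12. Ngdn, a nucleolar protein of small-subunit assembly, had 8.19 and 8.49 (ZT2), 5.38 and 4.54 (ZT6), 6.98 and 6.33 (ZT10), 8.46 and 8.47 (ZT14), 4.41 and 4.57 (ZT18) and 7.26 and 8.65 (ZT22). Its trough was at ZT6 and ZT18, and ZT22 reached the level of the peaks in series 2. Nucb2, the precursor of the peptide nesfatin, had 3.45 and 3.44 (ZT2), 0.58 and 1.11 (ZT6), 0.67 and 0.58 (ZT10), 2.32 and 3.16 (ZT14), 0.59 and 1.07 (ZT18) and 0.84 and 1.51 (ZT22). It was low at all times but ZT2 and ZT14 and had a fitted 12 hr range of 4.46-fold. The other genes of ribosome assembly, Nol5 (Nop58), Bysl, Nolc1 and Gpatch4, had 5.85 ± 0.761, 4.34 ± 0.468, 6.12 ± 0.442 and 4.37 ± 0.947 at ZT2 and ZT14 against 3.55 ± 0.191, 2.60 ± 0.426, 4.04 ± 0.702 and 2.25 ± 0.446 at ZT6 and ZT18. Of the translation factors, Eif2s1, the subunit of eIF2 that stress kinases phosphorylate, had 9.39 ± 0.439 against 7.0 ± 0.742, and Rars, the arginyl-tRNA synthetase, 10.7 ± 1.53 against 7.32 ± 0.652. Tra2a, a splicing regulator, had 6.74 ± 0.652 against 4.42 ± 1.01.

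Further genes of highest F12 in this phase were BC013529, 5830472M02Rik (Ttpal), 2810405J04Rik (Fam98a) and Nme1. Nme1, a nucleoside diphosphate kinase, had 34.6 and 29.4 (ZT2), 20.4 and 20.7 (ZT6), 21.9 and 20.5 (ZT10), 33.3 and 29.6 (ZT14), 21.1 and 22.5 (ZT18) and 24.3 and 26.6 (ZT22). Peak and trough did not overlap. BC013529 had 22.6 ± 2.24 at ZT2 and ZT14 against 13.01 ± 0.811 at ZT6 and ZT18, Ttpal 5.21 ± 0.611 against 2.80 ± 0.336, and Fam98a 9.55 ± 0.419 against 6.76 ± 0.313. Dynll1, a light chain of dynein, ranged over 2.08-fold in the fit with an SE of 0.0932 on the log2 scale.

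Several secreted plasma proteins were in this phase, while Apoa2 and the plasma esterase Es1 were highest at ZT6 and ZT18. Saa4, the constitutive member of the serum amyloid A family, had 398 and 404 (ZT2), 85.8 and 92.6 (ZT6), 198 and 125 (ZT10), 297 and 288 (ZT14), 142 and 130 (ZT18) and 126 and 241 (ZT22). The 3 samples with high Saa1 were among its 5 highest, together with both ZT14 samples, in which Saa1 was at most 58.2. Ahsg (fetuin-A), among the most abundant liver mRNAs, had 3297 and 3140 (ZT2), 1921 and 1923 (ZT6), 2556 and 1679 (ZT10), 2900 and 2890 (ZT14), 2046 and 2575 (ZT18) and 2307 and 2696 (ZT22), and its peaks lay above all other values. F11, coagulation factor XI, had pair means of 32.2 ± 4.36 and 16.9 ± 1.71 and Serpina11 60.0 ± 10.5 and 27.6 ± 7.39. The chemokine Cxcl1 was highest at ZT2 with 11.3 and 8.63, and reached 5.44 and 9.15 at ZT14.

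**Figure D4:**
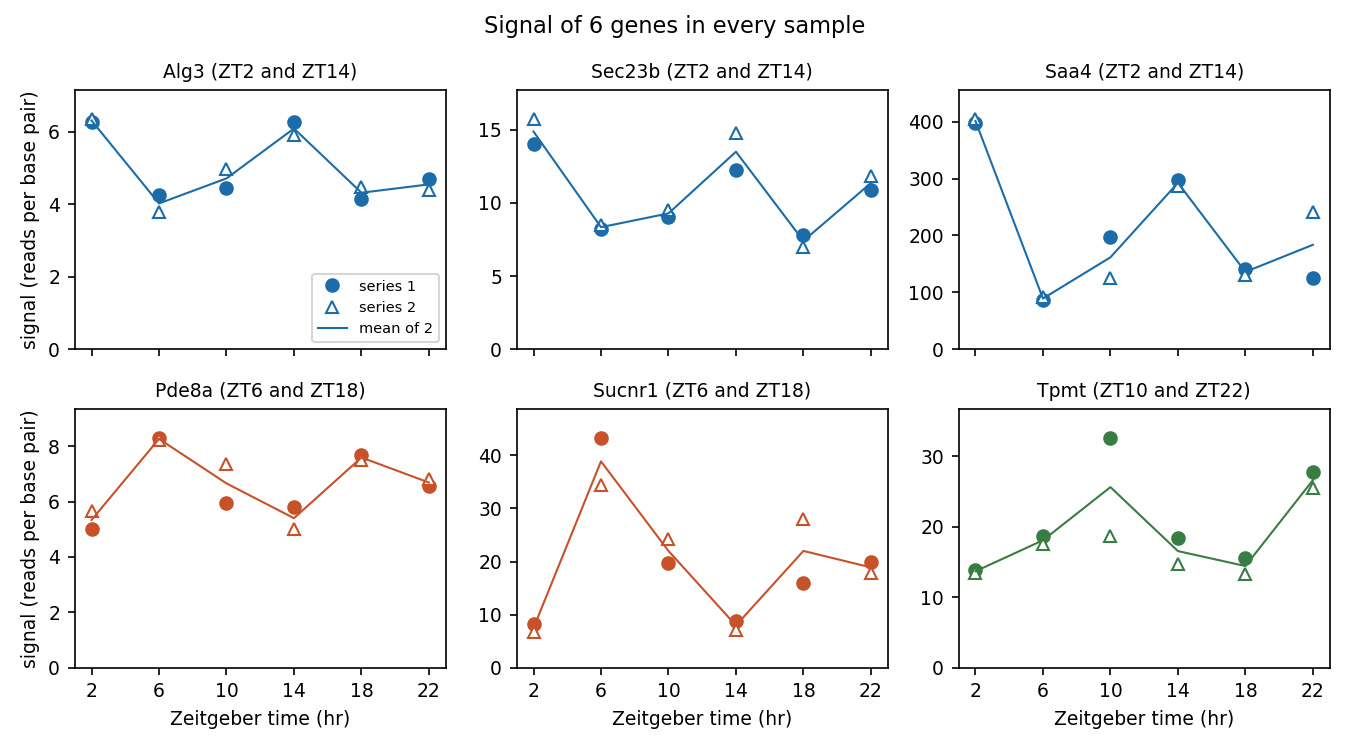
Signal in reads per base pair (y axis, from 0) by Zeitgeber time (x axis) for Alg3, Sec23b and Saa4 (highest at ZT2 and ZT14), Pde8a and Sucnr1 (ZT6 and ZT18) and Tpmt (ZT10 and ZT22), with circles for series 1, triangles for series 2 and a line through the mean of both. Each gene has 2 crests 12 hr apart, of like height in Alg3 and unlike height in Sucnr1, where ZT6 is 1.77 times ZT18.

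In the second group, with peaks at ZT6 and ZT18, signalling, transport and metabolic genes were found. Pde8a, a phosphodiesterase that degrades cAMP, had the highest F12 (0.867; chromosome 7, 88358482 to 88479419), with 5.02 and 5.65 (ZT2), 8.30 and 8.22 (ZT6), 5.95 and 7.36 (ZT10), 5.79 and 5.01 (ZT14), 7.68 and 7.50 (ZT18) and 6.56 and 6.81 (ZT22). The 4 values of ZT6 and ZT18 were the highest of the 12. Pde4c, another cAMP phosphodiesterase, was in the first phase, with 2.93 ± 0.131 at ZT2 and ZT14 against 1.73 ± 0.309 at ZT10 and ZT22. Sucnr1, the receptor of succinate, had 8.24 and 6.74 (ZT2), 43.3 and 34.4 (ZT6), 19.8 and 24.2 (ZT10), 8.87 and 7.10 (ZT14), 15.9 and 28.1 (ZT18) and 20.0 and 17.9 (ZT22). Its troughs at ZT2 and ZT14 did not overlap with the rest, while ZT18 and ZT10 overlapped, so that the 12 hr pattern lay in the trough more than in the second peak.

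Other genes of this phase were likewise marked by their trough. Abcc6, an ABC transporter of the hepatocyte membrane whose loss causes ectopic calcification, had 13.8 and 14.5 (ZT2), 21.0 and 21.2 (ZT6), 20.3 and 17.2 (ZT10), 7.94 and 8.72 (ZT14), 17.7 and 20.9 (ZT18) and 18.9 and 16.4 (ZT22). Ccdc104 (Cfap36) had 4.10 ± 0.174 at ZT2 and ZT14 but 7.36 ± 1.12 at ZT6 and ZT18 and 6.91 ± 1.06 at ZT10 and ZT22. In both genes the values of ZT10 and ZT22 overlapped with those of ZT6 and ZT18. Both ZT6 values lay above all 4 values of ZT10 and ZT22 in 46 of the 62 genes, but both ZT18 values did so in 26. Among all genes tested 11.6% met the first and 5.6% the second criterion.

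Slc44a1, a choline transporter, had pair means of 9.80 ± 0.346 at ZT6 and ZT18 and 6.32 ± 0.497 at ZT2 and ZT14, and Chdh, which oxidises choline in mitochondria, 35.5 ± 3.91 and 23.6 ± 2.88. Abat, which breaks down GABA, had 53.3 ± 5.31 and 39.0 ± 2.24. Aqp8, a water channel of hepatocytes, had 85.5 ± 19.8 and 33.3 ± 9.21, with 81.8 at ZT22 in series 1, within the range of the peaks. Rassf7, Nxt2 and Grpel2 (chromosome 18, a partner of the mitochondrial Hsp70) had 8.39 ± 1.10, 14.3 ± 1.14 and 8.36 ± 0.912 at ZT6 and ZT18 against 5.49 ± 0.522, 9.82 ± 0.841 and 4.57 ± 0.204 at ZT2 and ZT14. Lsm10, a subunit of the U7 particle that processes histone mRNA, had 9.81 ± 1.18 against 6.83 ± 0.756.

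Es1 (Ces1c) and Es22 (Ces1e), neighbouring carboxylesterase genes on chromosome 8, were both in this phase. Es1, the secreted plasma esterase of mice, had 419 and 400 (ZT2), 498 and 564 (ZT6), 510 and 488 (ZT10), 353 and 395 (ZT14), 643 and 662 (ZT18) and 563 and 445 (ZT22). It was highest at ZT18, and ZT10 and ZT22 overlapped with ZT6. Es22 had 17.6 and 23.5 (ZT2), 83.3 and 87.3 (ZT6), 57.7 and 75.6 (ZT10), 42.8 and 52.5 (ZT14), 74.2 and 76.1 (ZT18) and 55.2 and 35.4 (ZT22), lowest in both ZT2 samples. Related genes can share reads, although only uniquely mapped sequences were counted.

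The promoters of both esterase genes are shown because each holds TTATGTAA, the D-box to which the PAR bZIP factors DBP, TEF and HLF bind. The window and capitals are as above, at chr8:93131284-93131383 and chr8:93229620-93229719 on the minus strand, and the motifs begin 94 and 81 bases before the start. The motif was found in 3 of 128 promoters of the chosen genes (2.34%), in 0.606% of those of genes past the minimum and in 0.938% of all.
Es1: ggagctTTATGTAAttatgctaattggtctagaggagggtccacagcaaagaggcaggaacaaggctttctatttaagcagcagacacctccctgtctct
Es22: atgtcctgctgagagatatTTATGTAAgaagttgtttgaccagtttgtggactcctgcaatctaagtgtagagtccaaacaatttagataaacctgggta

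The most abundant of the 150 genes was Apoa2, a major apolipoprotein of HDL, with 4556 and 2720 (ZT2), 7369 and 5450 (ZT6), 2721 and 5536 (ZT10), 4009 and 3714 (ZT14), 6846 and 5916 (ZT18) and 2376 and 2134 (ZT22). The series differed most at ZT10, where the series 2 value lay within the range of the peaks. Ndrg2, a stress-responsive gene, had 386 ± 6.66 at ZT6 and ZT18 and 274 ± 55.6 at ZT10 and ZT22. G0s2, an inhibitor of triglyceride lipase, had 39.5 and 55.4 (ZT2), 112 and 171 (ZT6), 52.1 and 137 (ZT10), 59.5 and 27.3 (ZT14), 242 and 156 (ZT18) and 94.6 and 50.8 (ZT22), again with a wide spread at ZT10. In the first phase, Ugt2b1, a glucuronosyltransferase, had 338 ± 8.99 against 202 ± 39.0, and Errfi1, a feedback inhibitor of the EGF receptor, 257 ± 9.13 at ZT2 and ZT14 and 116 ± 45.2 at ZT6 and ZT18 but also 232 ± 52.5 at ZT10 and ZT22, so that Errfi1 had a trough at ZT6 and ZT18 rather than a peak.

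The 8 genes with peaks at ZT10 and ZT22 were of low signal, with a median of 2.39 reads per base pair. Tpmt, which methylates thiopurine drugs, was the most abundant of them, with 13.9 and 13.5 (ZT2), 18.6 and 17.5 (ZT6), 32.6 and 18.6 (ZT10), 18.4 and 14.7 (ZT14), 15.6 and 13.3 (ZT18) and 27.7 and 25.5 (ZT22). The series 2 value at ZT10 did not stand out from the others. Gna14, a G protein subunit, had 5.42 ± 0.802 at ZT10 and ZT22, 5.08 ± 1.26 at ZT2 and ZT14 and 2.85 ± 0.491 at ZT6 and ZT18. Ppil3, Rwdd3 and Herc5 (Herc6) had 3.12 ± 0.251, 2.51 ± 0.253 and 3.05 ± 0.614 in their highest pair and 2.09 ± 0.365, 1.67 ± 0.102 and 1.82 ± 0.217 in their lowest. AK206780 and AK190704 had almost the same values in every sample, and AK076839 had 2.06 ± 0.455 at ZT10 and ZT22.

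Gja10 had the widest fitted 12 hr range, 30.9-fold, but its values were of 2 kinds. They were 6.65 and 6.81 at ZT2, 4.16 and 4.76 at ZT6, 5.31 and 4.62 at ZT14, but 0.07 and 0.06 at ZT10 and 0.08 and 0.14 at ZT22, and at ZT18 the series were split into 5.21 and 0.14. The ZT18 samples thus fell on both sides.

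Just inside the limit were SIK2, Sec61g and 1810009A15Rik, with F12 of 0.633, and just outside were Sfrs3 (Srsf3), Cebpe and 0610012H03Rik with 0.6325. AK206780 and AK190704, Phf1 and Tctex-3, GDNFR-alpha and Gfra1, and Snf1lk2 and SIK2 were pairs of entries with nearly proportional values (correlation above 0.99). Each of these pairs may be the same transcript entered again. H13 and Hm13, entries of the same gene, had a correlation of 0.845 and mean signals of 11.9 and 3.66.

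The pattern of one series was also read in the other, which the choice had not used. The same rule applied to the 6 values of series 1 picked 150 genes, of which 68 (45.3%) kept the rhythm in series 2, with F12 above 0.4 and a peak within 2 hr. Of all 10198 genes past the signal minimum, 23.7% met this criterion. The fold was not required of these, so that they differ from the picks in fold as well. For 6 unrelated values F12 is 0.4 on average, so that the limit is this mean. Of the 150 picks of series 2, 74 (49.3%) kept the rhythm in series 1, against 28.6% of all genes. The shares differed by the highest pair in the choosing series. At ZT2 and ZT14, 35 of 90 series 1 picks and 39 of 68 series 2 picks were kept, against 23.5% and 41.4% of all genes. At ZT6 and ZT18, 30 of 49 and 28 of 65 were kept, against 29.9% and 24.1%. At ZT10 and ZT22, 3 of 11 and 7 of 17 were kept, against 16.6% and 19.4%. The median F12 of the picks fell from 0.934 to 0.427 in the held-out series, where all genes had 0.31, and from 0.894 to 0.464, where all genes had 0.363. With the rule as given, more picks were lost than kept in both directions. With a minimum of 4, 68 and 86 of 150 were kept (45.3% and 57.3%), against 24.7% and 30.1% of all genes. With no signal minimum the series 2 picks were kept less often than all genes (15.3% against 23.1%), and the series 1 picks at 24.0% against 19.6%.

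In limma with 12 hr terms in series 2 alone, 16 of the 147 series 1 picks that were tested (10.9%) had an unadjusted p below 0.05, against 2.14% of all genes. In series 1 alone, 22 of the 141 series 2 picks that were tested (15.6%) did, against 4.72%. With no signal minimum these shares were 6.06% of 132 against 3.3% and 6.62% of 136 against 5.36%. These fits held no 24 hr terms, so that a daily rhythm counted as residual variance. A rule that takes the highest F12 takes genes with little 24 hr variance. The 150 genes chosen over all samples had a median F24 of 0.0933, against 0.31 in all genes. How much of the gap in shares comes from this was not tested. After Benjamini-Hochberg adjustment none of the picks passed in either series, and an exact test of 1 gene over 6 values cannot go below a p of 0.0667. Without the ZT2 samples, with 5 values per series, a limit of F12 adapted to these and the same highest pair as the criterion, 63 and 73 picks were kept (42.0% and 48.7%), against 21.9% and 24.0% of all genes.

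**Figure D5:**
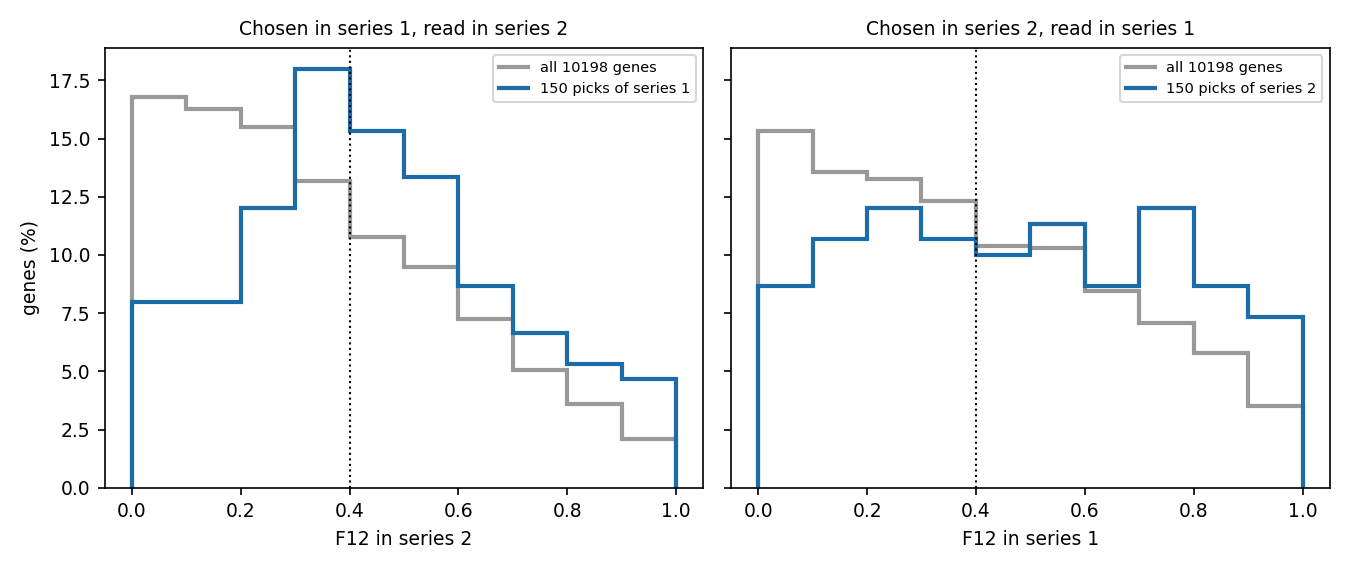
Distribution of F12 (x axis, bins of 0.1; y axis, percent of genes) in series 2 for the 150 picks of series 1 (left) and in series 1 for the 150 picks of series 2 (right), in blue, with all 10198 genes in grey and the limit of 0.4 dotted. The picks lie to the right of all genes in both panels, with medians of 0.427 against 0.31 and 0.464 against 0.363, but spread over the whole range.

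Only 9 genes were picked in both series. Lsm10, Pde8a, Ttpal (5830472M02Rik), Nucb2, Alg3, Ngdn and Pde4c had peaks within 2 hr of each other and are all among the 150 genes described here. Fen1 and H2-Q6, not among them, had peaks 2.82 and 5.71 hr apart. In the lower of the 2 series, F12 was 0.914 for Lsm10, 0.911 for Pde8a and Ttpal and 0.91 for Nucb2. It was 0.894 for Alg3, 0.861 for Ngdn and 0.846 for Pde4c.

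Across all genes, limma with 12 hr and 24 hr terms called 393 of 10198 genes (3.85%) at an adjusted p below 0.05. Of the 150 genes 98 were called, and since the same values chose them nothing is read from this. Called genes with their highest pair at ZT2 and ZT14 made up 1.77% of all genes, those at ZT6 and ZT18 1.9% and those at ZT10 and ZT22 0.186%, and among the 150 genes they numbered 59, 35 and 4. Without the ZT2 samples 1 gene of 10055 and none of the 150 was called, and without all 3 samples of high acute-phase signal again 1 gene and none of the 150. Among the 150 genes the median 12 hr range was 0.67 on the log2 scale with all samples, 0.70 without the ZT2 samples and 0.67 without all 3, in fits with fewer samples. An unadjusted p below 0.05 was found in 119 and 93 of 149 genes and in 13.5% and 11.5% of all genes, which describes genes chosen on these values. The exact permutation of the 12 values into 3 pairs called no gene after adjustment and 1172 at an unadjusted p below 0.05. Its smallest possible p is 0.000173, and members at this p had an adjusted p of 0.177 in this test. With so coarse a p over 10198 genes, nothing is read from the lack of calls.

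Wider lists were read in the fit over all genes, where 3.85% were called, and calls were not particular to the ER. Of 27 genes of the secretory pathway tested, Sec23b, Ssr1, Sec61g and Kdelr2 were called, all with their highest pair at ZT2 and ZT14, and the first 3 are among the 150. Their median 12 hr range was 0.34 on the log2 scale, against 0.24 for all genes, 18 of 27 were highest at ZT2 and ZT14, and 15 had an unadjusted p below 0.05, as 23.7% of all genes did. Sec24d, also among the 150, was not called. The summed signal of the list ran from 949 to 983 at ZT2 and ZT14, from 815 to 849 at ZT6 and ZT18 and from 872 to 965 at ZT10 and ZT22, so that the first pair did not overlap with the second. Of 29 ER chaperones and genes of the unfolded protein response, Armet (Manf), Dnajc3a, Dnajb11 and Creld2 were called, 25 were highest at ZT2 and ZT14, 19 had an unadjusted p below 0.05, and none is among the 150. Hspa5 (BiP), the main ER chaperone, had 374 ± 101 at ZT2 and ZT14 against 192 ± 29.9 at ZT6 and ZT18 but 280.4 ± 113 at ZT10 and ZT22, with F12 of 0.481, and did not pass (adjusted p = 0.0566 in limma). Without the ZT2 samples none of either list was called, with 11 of 27 and 11 of 29 at an unadjusted p below 0.05 against 13.5% of all genes.

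Of the acute-phase list, which holds Saa4, 2 of 20 genes were called, 16 were highest at ZT2 and ZT14 and 16 had an unadjusted p below 0.05, with a median 12 hr range of 1.43 on the log2 scale. Without the ZT2 samples, which hold the highest acute-phase signal, none of the 20 was called and 3 had an unadjusted p below 0.05. Of 13 sex-biased genes 4 were called, 2 of 14 immediate early genes, 2 of 3 cell cycle genes and 2 of 18 heat shock genes. Of 23 splicing regulators 2 were called (Tra2a among them). None of 14 interferon genes was called, and 2 of these had an unadjusted p below 0.05 in limma. Without the ZT2 samples no gene of these lists was called. In the same order 3, 4, 2, 5, 2 and 2 genes then had an unadjusted p below 0.05 in limma. Of 18 genes of fatty acid synthesis 3 were called, 2 with their highest pair at ZT6 and ZT18 and 1 at ZT10 and ZT22, and 13 had an unadjusted p below 0.05, with a median range of 1.40. None of these was called without the ZT2 samples, and 3 of 18 had an unadjusted p below 0.05, against 13.5% of all genes.

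Of the fasting response, 8 of 17 genes were highest at ZT6 and ZT18 and 8 at ZT10 and ZT22, and 5 were called, all with peaks at ZT6 and ZT18, among them Cyp4a10 and Cyp4a14, fatty acid hydroxylases, and Ppara, the receptor that induces them, where 1.9% of all genes were called in this phase. None of the 17 was called without the ZT2 samples, in a fit that called 1 gene in all, and 7 had an unadjusted p below 0.05. None of the 17 is among the 150. Ppara had F12 of 0.464 and F24 of 0.44. None of 24 genes of cholesterol synthesis and none of 19 of the respiratory chain was called in limma, with 0 and 6 at an unadjusted p below 0.05. Again none was called without the ZT2 samples, with 14 and 0 at an unadjusted p below 0.05.

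Of the 150 genes 132 had a single place in the mm9 annotation (GENCODE), on 20 chromosomes, and 131 of these are protein-coding. Since strand was not used in counting, reads of overlapping genes cannot be told apart. Exons of 30 genes overlap with another gene, in 25 of them mainly on the opposite strand, and in 13 genes over 10% of the exon bases are shared. Srprb shares 21.0% with Trf (transferrin), whose mean signal of 3020 was far above 5.94 for Srprb and whose F12 was 0.59 with the same highest pair. Nme1 shares 12.5% with Nme2 (F12 of 0.701, same highest pair), and Gmppb 34.0% with Rnf123 (F12 of 0.161). How much of the signal of these genes comes from the neighbour was not tested.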

How the data were processed

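RNA-Seq libraries of 12 mouse liver samples were analysed. The deposited signal is reads per base pair, which the authors made by summing coverage over all exons of a gene without regard to strand, dividing by exon length and scaling to 10000000 uniquely mapped sequences; the submitters' processing notes name CASAVA 1.8, TopHat and mm9. The deposited columns of 24 hr scores, p-values and phases were not used. The columns named ZT20 were taken as ZT22, as the labels give. F12, F24 and peak times were computed on the signal as deposited. In limma 3.58.1 (R 4.3.3), cosine and sine of 12 hr were tested on log2(signal + 0.25) with 24 hr terms as covariates, over genes above 2, with Benjamini-Hochberg adjustment; a fold is on this scale. The fit was tested on simulated data of 10198 genes. Of 50 genes each given a 1.5-, 2-, 3- or 6-fold 12 hr component, it called 27, 40, 46 and 47. It also called 14 genes given none. The members and lists were chosen with earlier results of these data known. Named are the 8 genes of highest F12 per phase, the 8 of highest mean signal, members in fixed lists, genes picked in both series and those at the limit, with role examples, Sucnr1, Dynll1, Es22 and Gja10 added after the values were seen. Replicate numbers were not taken to pair samples. Alternatives were other pseudocounts, minimums, scalings and terms, an exact permutation test, and samples left out. Python 3.11.15 was used. The core clock list is not reported here.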

Additional observations from a re-analysis of the deposited data

How the results depend on the processing

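The number of calls changed with the model and with the samples used. Of 393 genes and 98 members called, 154 and 43 were called with no minimum and 7 and 6 with 12 hr terms alone. By exact permutation 0 and 0 were called, where 1172 genes had an unadjusted p below 0.05. That permutation test cannot go below a p of 0.000173. With a replicate block 246 genes and 72 members were called; correlations of same-numbered samples were −0.153 to 0.206, and only 2 of 15 were above 0.1, so the numbers were not taken to pair samples. With samples left out in turn, 0 to 632 genes and 0 to 112 members were called, with the lowest counts for whole series (0 and 1 genes) and 19 and 30 genes without a ZT2 sample. Without both ZT2 samples, and without these and ZT22 of series 2 (both chosen after seeing the data), 1 gene and 0 members were called each time. Of the 150 members, 65 stayed with a lower minimum fold, 38 with a fold above 2, 48 and 46 without the ZT2 samples and without all 3, and 91 to 121 with samples left out in turn. Of the picks kept, 36 and 23 were kept with no minimum and 34 and 46 with F12 above 0.6, in place of 68 and 74; with no minimum the shares were 24.0% and 15.3% against 19.6% and 23.1% of all genes, so that the order turned for the series 2 picks. The held-out fit gave 8 and 9 picks at an unadjusted p below 0.05 with no minimum (6.06% and 6.62% of those tested against 3.3% and 5.36% of all genes), and 21 of 300 picks of series 1, in place of 16 and 22 of 150. Kept picks use no pseudocount. Of 42 named genes, selected on the same values, none moved its 12 hr peak by over 3 hr in any fit that gave a peak time, while of 1002 gene values under the alternatives 333 lost and 18 gained a call. The cause was not tested. Genes of low signal rest on the fewest reads.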
